A study of Drosophila melanogaster with 9 samples.

Results

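The small RNAs described here were read in the sense direction from 72 weak 3′ untranslated region (UTR) features of protein-coding genes, which were more abundant in both enok mutants than in wild-type (WT) ovaries. The members were chosen from the measured values themselves. A feature had to have a mean sense abundance under 30 in WT, a mean of at least 5 over all 9 libraries, a mean antisense abundance under 3 in WT, and a log2 ratio of mutant to WT mean, with 1 added to each mean, of at least 0.6 in enok1 and in enok2. Features on chromosome 4 and on heterochromatic scaffolds were left out, as were the genes fok and Amun. Of 8510 features in the tables, 4601 remained once those with the same position, strand and values were counted once, and 561 met everything but the ratios. The 72 members (12.8% of the 561) belong to 56 named genes and to 1 transcript without a symbol. In 10 genes more than 1 feature was a member, most of them overlapping blocks or isoforms that can share reads and are not independent. Since the ratios chose them, the higher level of the members in the mutants is a description and carries no test.

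Small RNAs had been sequenced from total RNA of mid to late egg chambers, with 3 libraries for each genotype. All females carried hs-Flp over +. Their second chromosomes were FRTG13 with enok[1] (enok1), FRTG13 with enok[2] (enok2) or FRTG13 alone (WT), in each case over an FRTG13 chromosome with the dominant ovo[D1-18] allele. All were adults of 3 to 5 days that had been heat-shocked as larvae, so that the FLP recombinase made germline clones homozygous for the FRT arm, while ovo[D1-18] stops egg chambers whose germline is not clonal. The follicle cells around the germline are not part of these germline clones, and whether they held clones of their own was not examined here. In all groups the RNA came from germline and follicle cells. The enok1 allele encodes a truncated protein that lacks most of the acetyltransferase domain, and the enok2 allele changes a conserved residue inside that domain. Nothing in the labels says whether the 3 libraries of a genotype came from separate collections of females, so p-values measure the spread between these libraries. In such bulk samples, fewer cells of a type and less RNA per cell cannot be told apart.

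Enok is the fly KAT6 acetyltransferase, which acetylates histone H3. PIWI-interacting RNAs (piRNAs) guide Piwi proteins against transposons in the gonad, and most of them come from piRNA clusters. Some mRNAs are also processed into piRNAs, mainly along their 3′ UTRs and in the sense direction. These genic piRNAs match few transposons, and in the fly ovary they are known from both germline and follicle cells. Whether a read from a 3′ UTR in these tables was a piRNA or a fragment of the mRNA was not examined here. A small RNA level from a 3′ UTR is also not the level of its mRNA.

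Each value is an abundance scaled to the microRNAs (miRNAs) that were read in its own library. The highest of the most frequent antisense values in a library was taken as that of 1 read. It was 0.27 to 0.40 in the enok1 libraries, 0.39 to 0.49 in the enok2 libraries and 0.40 to 0.42 in the WT libraries. By this step the minimum of 5 stands for between 10.2 and 18.5 read equivalents. Of 679 sense features with a mean of at least 5, limma with Benjamini-Hochberg adjustment called 123 (18.1%) higher and 31 (4.57%) lower in enok1 than in WT, and 67 (9.87%) higher and 14 (2.06%) lower in enok2. Members were within these 679. The median log2 ratio of all 679 was 0.19 in enok1 and 0.11 in enok2. Libraries of 1 group also differed as a whole, since enok1 replicate 1 was the lowest of its group in 45 of the 72 members (62.5%) and in 52% of the 679 features. In the same way enok2 replicate 2 was lowest in 40 members (55.6%) and in 44.9% of the features, and WT replicate 1 in 40 members (55.6%) and in 54.3%.

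Most features of follicle cell and eggshell genes were lower in enok1. Of 21 follicle cell and eggshell genes in the tables, 12 had features with a mean of at least 5. Of their 17 features 11 were called lower in enok1, beside 4.57% of the 679 features, and 0 in enok2, beside 2.06% (limma). Isoforms of dec and of Vm26Aa had nearly the same values, so the 17 are not independent measurements. The median log2 ratio of the 17 was −1.04 in enok1 and −0.47 in enok2, and 0 of them were called between the mutants. The lack of a call does not show equal levels. At Cp18 the libraries of the mutants did not overlap, at 16.3 to 133 in enok1 and 160 to 394 in enok2, while at Cp15 they did. The follicle cell regulator tj (traffic jam) had ratios of 0.18 in enok1 and 0.03 or 0.04 in enok2 at its 2 features. The summed sense abundance of these 17 features was 1723 to 3518 in the enok1 libraries, 3435 to 6339 in the enok2 libraries and 4014 to 6941 in the WT libraries, most of it from the chorion gene Cp15, and none of the 21 genes was at 0. No member belongs to this list. Of 16 germline and oocyte genes in the tables, dhd, egl, ovo and the member osk reached a mean of 5. Their sum was 31.7 to 35.8 in enok1, 23.6 to 37.6 in enok2 and 23.8 to 28.8 in WT. This sum includes osk, which the rule chose for its higher level in the mutants. In enok1 and enok2 the log2 ratios were −0.39 and −0.53 for dhd, −0.30 and −0.24 for egl, and 0.33 and 0.24 for ovo. Of 2 muscle sheath genes in the tables only sls did so, at 8.14 to 11.53, 7.04 to 11.2 and 7.94 to 14.6 in enok1, enok2 and WT, and both hemocyte genes in the tables (crq and srp) stayed under a mean of 5. The part of these shifts in the level of the members was not tested.

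Together the members yielded about 2 times as many small RNAs in the mutants as in WT. Their summed sense abundance was 1044, 1227 and 1183 in the enok1 libraries, 1128, 979 and 1137 in the enok2 libraries and 519, 571 and 576 in the WT libraries. Every mutant library lay above every WT library. The rule chose the members on these contrasts, so neither this gap nor that to the features left out is a test. As a share of all sense 3′ UTR abundance the members made up 3.90% ± 0.16 in enok1, 3.54% ± 0.31 in enok2 and 1.95% ± 0.14 in WT (SD, n = 3 each). The other 489 weak features that met everything but the ratios summed to 5103 ± 337 in enok1, 4817 ± 201 in enok2 and 4611 ± 404 in WT, and their libraries overlapped between groups. Counting each gene once, by its strongest member, gave 979 ± 80.9, 923 ± 78.2 and 470 ± 25.6 for enok1, enok2 and WT.

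**Figure D1:**
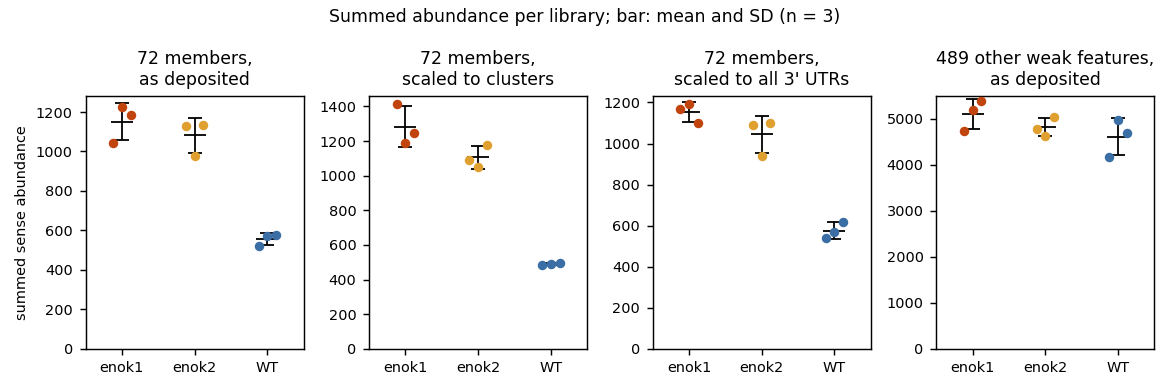
Summed sense abundance per library for enok1, enok2 and WT, where each point is a library and the bars are the mean and SD (n = 3). The members are shown as deposited, scaled by the median of ratios over piRNA clusters and scaled to the sum of all sense 3′ UTRs. In each of these panels all 6 mutant libraries lie above all 3 WT libraries, while the other 489 weak features overlap between groups. The rule chose the members on these contrasts, so this split is no test. The clusters themselves summed to less in the mutants, so scaling to them raises mutant values.

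The log2 ratios of the members ran between 0.61 and 1.99 in enok1, with a median of 0.97, and between 0.60 and 1.87 in enok2, with a median of 0.82. The 489 other weak features had medians of 0.16 and 0.07. Both ratios reached 1 in 13 members, the smaller ratio lay between 0.7 and 1 in 36, and it was under 0.7 in 23. In WT the members had means between 1.17 and 27.6 with a median of 4.69, against 7.53 for the other weak features, and 38 of the 72 were under 5. Those 38 met the minimum mean over all libraries only through their mutant libraries. The ratios and that minimum together favour low WT levels, so this gap in WT level follows from the rule. All 3 enok1 libraries lay above all 3 WT libraries in 66 members, beside 28.9% of the 679 features. For enok2 this held in 62 members, beside 22.7%, and for both mutants at once in 59, beside 17.8%. The rule used these contrasts, so nothing is read from the gap to the background. In the opposite direction, 7 of the 561 weak features had ratios of −0.6 or less in both mutants. There were 122 features at 0.6 or more in enok1 and 88 in enok2, of which 50 passed in enok1 only and 16 in enok2 only.

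**Figure D2:**
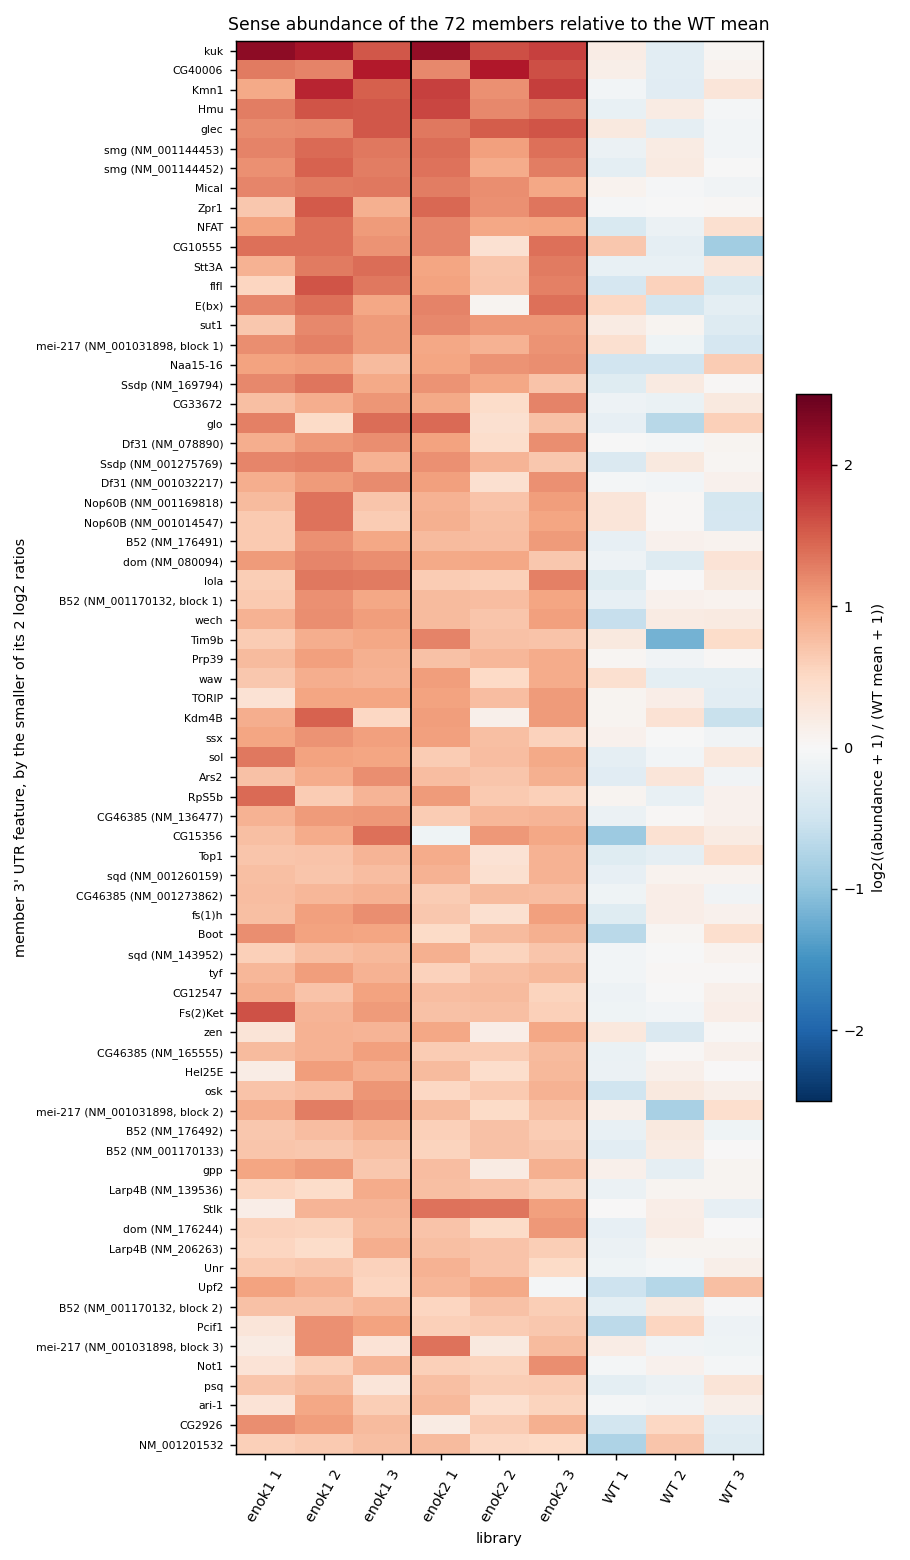
Each row is 1 of the 72 member features and each column a library, 3 each of enok1, enok2 and WT, coloured by log2 of abundance plus 1 over the WT mean plus 1. Rows are ordered by the smaller of the 2 mutant ratios, with kuk at the top. In 59 rows every mutant library is above every WT library, beside 17.8% of the 679 features tested, on contrasts that the rule used.

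The largest ratios were at kuk (kugelkern), whose protein sits at the nuclear envelope and is needed for nuclei to elongate when the embryo forms cells. Its 3′ UTR feature (NM_001260219, chromosome 3R, start 12910132 in dm3, forward strand) had an abundance of 9.31, 8.21 and 5.39 in enok1 libraries and 8.98, 5.66 and 6.15 in enok2 libraries, against 1.47, 0.80 and 1.25 in WT libraries. The lowest mutant library was thus above the highest WT library by a wide margin. The log2 ratios were 1.99 in enok1 and 1.87 in enok2, at a WT level of only a few reads.

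Other members also act in the nucleus, in division, in the cytoskeleton or in oocyte patterning, and these 7 genes with 9 features had median log2 ratios of 1.16 in enok1 and 0.96 in enok2. Grouping genes by role was done with the members known. Kmn1, a component of the kinetochore complex that binds microtubules, had 19.4, 39.0 and 29.1 in enok1, 33.6, 22.4 and 34.3 in enok2 and 9.12, 7.73 and 12.1 in WT (NM_132501, X, start 11465416, reverse). Its enok1 libraries spread widely, by a factor of about 2, yet none overlapped WT. Mical, a monooxygenase that oxidises actin and takes filaments apart, stood at 55.9, 59.1 and 59.9 in enok1, 58.2, 53.9 and 47.1 in enok2 and 25.2, 23.1 and 22.1 in WT (NM_001260087, 3R, start 5830378, reverse). Its libraries were tight within each group, with means of 58.3 ± 2.1, 53.1 ± 5.6 and 23.5 ± 1.6 in enok1, enok2 and WT. The phosphatase 4 subunit flfl (falafel) read 4.88, 10.99 and 9.10 in enok1, 7.09, 5.58 and 8.63 in enok2 and 2.0, 4.99 and 2.09 in WT (NM_142047, 3R, start 9517456, forward). Here enok1 replicate 1 was just under the highest WT library, so only enok2 was free of overlap.

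Fs(2)Ket encodes importin β, the carrier that brings proteins into the nucleus. The member feature (NM_001259179, 2L, start 20748122, forward) was at 18.7, 10.7 and 12.5 in enok1, 9.77, 10.03 and 8.89 in enok2 and 5.07, 5.19 and 6.27 in WT. Both mutants were clear of WT, and all enok1 libraries were above all enok2 libraries. The germ plasm organiser osk (oskar), whose mRNA is carried to the posterior pole of the oocyte, was at 15.3, 15.9 and 20.2 in enok1, 13.2, 14.6 and 17.1 in enok2 and 6.0, 10.77 and 10.03 in WT (NM_169248, 3R, start 4763090, forward), again without overlap. Its log2 ratios were 0.87 and 0.68. TORIP, which encodes a Torsin-interacting protein of the nuclear envelope, had means of 6.34 ± 1.7 in enok1, 7.13 ± 0.83 in enok2 and 3.19 ± 0.62 in WT.

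**Figure D3:**
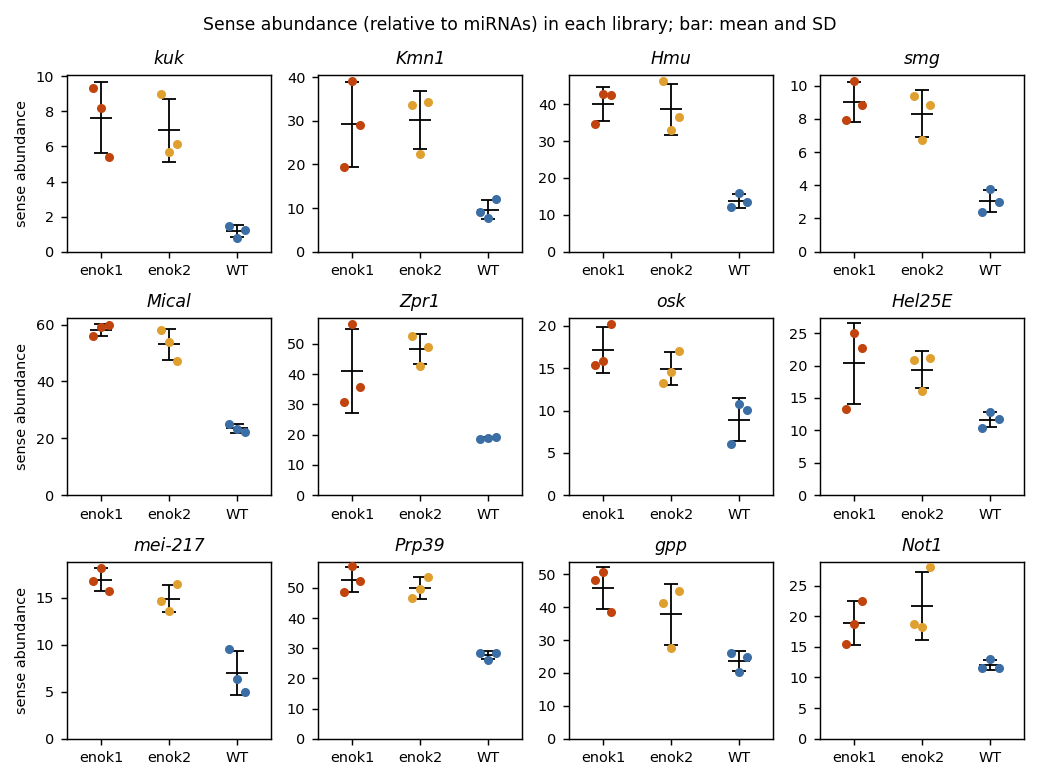
Sense abundance of 12 member features in each library of enok1, enok2 and WT, with points for libraries and bars for the mean and SD (n = 3). For smg and mei-217 the feature with the highest mean is drawn. In all 12 panels every mutant library is above every WT library, beside 17.8% of the 679 features tested, on contrasts that the rule used. The 12 were picked, and all are among the 59 members without overlap. Members that overlap WT, such as flfl, E(bx) and Upf2, are not drawn, so the count of 12 is no result.

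RNA-binding and RNA-processing proteins made up the group with the most members, 24 features of 16 genes, with median log2 ratios of 0.88 in enok1 and 0.73 in enok2. In 21 of the 24 all mutant libraries were above all WT libraries, beside 17.8% of the 679 features. The rule used these contrasts, so such counts within a role group are descriptions. The translational repressor smg (Smaug), which also recruits deadenylases to maternal mRNAs, had the largest ratios of the group. Its feature NM_001144452 (3L, start 8983417, reverse) read 7.93, 10.3 and 8.84 in enok1, 9.39, 6.70 and 8.83 in enok2 and 2.4, 3.75 and 3.01 in WT, which are log2 ratios of 1.30 and 1.20. A second smg feature with the same start had nearly the same values and is no independent measurement.

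Not1, the scaffold of the CCR4-NOT deadenylase, was at 15.4, 18.7 and 22.5 in enok1, 18.7, 18.2 and 28.1 in enok2 and 11.51, 12.98 and 11.49 in WT (NM_165678, 2R, start 5453651, reverse). The groups did not overlap, although the lowest enok1 library was within a few units of the highest WT library. Upf2, a factor of nonsense-mediated decay, read 7.60, 6.82 and 5.26 in enok1, 6.62, 7.28 and 3.14 in enok2 and 2.0, 1.6 and 6.27 in WT (NM_132206, X, start 7964277, reverse). It overlapped WT in both mutants because of WT replicate 3. Of the 19 names on the list of RNA decay and deadenylation, 13 genes were in the tables and 7 were tested with 8 features. In each mutant 3 were called higher and 0 lower. Over all 679 features 18.1% were called higher and 4.57% lower in enok1, and 9.87% and 2.06% in enok2. The rule itself chose 4 of the 8, those of Not1 and Upf2 and both smg features, which share a start. The other 4, of Edc3, Patr-1, Smg6 and tral, had median log2 ratios of 0.17 in enok1 and −0.05 in enok2, beside 0.19 and 0.11 over all 679 features.

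Among splicing and export factors, Prp39, a protein of the U1 snRNP, had the highest WT mean of all members. It stood at 48.8, 57.2 and 52.3 in enok1, 46.6, 49.6 and 53.7 in enok2 and 28.5, 26.1 and 28.3 in WT (NM_001104488, 3R, start 24641204, forward), and its libraries were tight within each group. Hel25E (UAP56), the helicase of mRNA export that also binds cluster transcripts in the germline, read 13.3, 25.0 and 22.7 in enok1, 20.8, 16.02 and 21.2 in enok2 and 10.4, 12.8 and 11.7 in WT (NM_001273171, 2L, start 5539707, reverse). In enok1 its lowest library was only slightly above WT. Boot (Bootlegger), which works with Nxf3 to export cluster transcripts, was at 9.77, 8.71 and 8.49 in enok1, 5.67, 7.28 and 7.85 in enok2 and 2.0, 3.99 and 5.43 in WT (NM_176109, 2R, start 4980009, reverse). The mutant with the larger ratio was enok1, at 1.06 against 0.72 in enok2. Of 15 piRNA pathway genes in the tables only Boot, Hel25E and fs(1)Yb reached a mean of 5, with 4 features. Of these, 2 were called higher in enok1 and 1 in enok2, beside 18.1% and 9.87% of the 679 features, and 0 were called lower in either. The rule itself chose 2 of the 4, those of Boot and Hel25E given above. Log2 ratios in enok1 and enok2 were 0.39 and 0.53 at another Hel25E block and −0.27 and −0.41 at fs(1)Yb.

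The SR splicing factor B52 gave 5 features in 2 groups of nearby starts, with log2 ratios of 0.70 to 0.94 in enok1 and 0.63 to 0.88 in enok2. The hnRNP sqd (Squid), which helps to place gurken mRNA in the oocyte, had 2 features, the larger with means of 20.1 ± 0.49 in enok1, 20.1 ± 3.8 in enok2 and 11.7 ± 1.4 in WT. Ars2, a partner of the cap-binding complex, was at 37.1 ± 5.8 in enok1, 33.1 ± 2.4 in enok2 and 18.8 ± 4.3 in WT. Larp4B, a La-related protein, was at 21.5 ± 4.2, 22.1 ± 1.2 and 13.3 ± 1.1 in enok1, enok2 and WT. The others of this group were the hnRNP glo, the translational regulator Unr, the Sex-lethal relative ssx, the pseudouridine synthase Nop60B, the translation activator tyf and the cap methyltransferase homologue Pcif1, of which glo overlapped WT in both mutants and Pcif1 in enok1.

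Chromatin proteins and transcription factors contributed 15 features of 12 genes, with median log2 ratios of 1.06 in enok1 and 0.86 in enok2. Of the 15, 10 were free of overlap with WT in both mutants, beside 17.8% of the 679 features, on contrasts that the rule used. NFAT, a transcription factor with a Rel domain, was at 10.04, 13.3 and 10.5 in enok1, 11.8, 9.74 and 9.81 in enok2 and 3.2, 3.99 and 6.27 in WT (NM_001272597, X, start 13554773, forward). Its log2 ratios were 1.16 and 1.06, and all mutant libraries were above WT. E(bx), the large subunit of the nucleosome remodeller NURF, read 9.77, 10.99 and 8.09 in enok1, 9.93, 3.88 and 10.99 in enok2 and 5.6, 2.39 and 2.92 in WT (NM_001274258, 3L, start 234982, reverse). The enok2 mean of E(bx) rests on replicates 1 and 3, since replicate 2 lay inside the WT range.

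The histone H3 lysine methyltransferase gpp (grappa, the fly Dot1) read 48.2, 50.8 and 38.6 in enok1, 41.1, 27.4 and 44.9 in enok2 and 26.0, 20.2 and 24.9 in WT (NM_141398, 3R, start 2272182, forward). The lowest enok2 library exceeded the highest WT library only narrowly. The bromodomain protein fs(1)h was at 24.9 ± 3.6 in enok1, 20.6 ± 4.8 in enok2 and 12.04 ± 2.1 in WT. Of 3 features of dom, the ATPase that exchanges histone H2A variants, 2 were members, with means of 10.6 ± 0.64 in enok1, 8.49 ± 1.1 in enok2 and 4.21 ± 1.3 in WT at the one with the larger ratio. Df31, which keeps chromatin open, had means of 16.6 ± 1.6 in enok1, 14.7 ± 4.0 in enok2 and 7.44 ± 0.56 in WT at the larger of its 2 features. The rest of the group were the demethylase Kdm4B, the BTB factors lola and psq, the LIM cofactor Ssdp, the homeobox gene zen and topoisomerase Top1.

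Membrane, enzyme and organelle proteins made up 13 features of 13 genes, with medians of 1.01 in both mutants. All 13 were above WT in every mutant library, beside 17.8% of the 679 features, on contrasts that the rule used. Hmu (Hemomucin), a membrane mucin, was at 34.7, 42.8 and 42.5 in enok1, 46.3, 33.0 and 36.5 in enok2 and 12.01, 15.96 and 13.4 in WT (NM_057811, 3R, start 23116856, forward). That is an increase of 2.9 times in enok1 and 2.8 times in enok2. glec (gliolectin), which binds carbohydrates, read 13.3, 13.4 and 17.4 in enok1, 14.7, 17.0 and 17.7 in enok2 and 6.4, 4.39 and 5.01 in WT (NM_079719, 3R, start 17676416, reverse). Its lowest mutant value was about 2 times the highest WT value. The zinc finger protein Zpr1 stood at 30.7, 56.6 and 35.6 in enok1, 52.5, 42.8 and 49.1 in enok2 and 18.6, 18.8 and 19.2 in WT (NM_132304, X, start 9054157, reverse). The WT libraries of Zpr1 lay close together, and enok1 replicate 2 stood apart from the other two of its group.

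Stt3A, the catalytic subunit of the oligosaccharyltransferase, was at 13.2, 18.0 and 19.4 in enok1, 14.2, 11.4 and 18.1 in enok2 and 5.8, 5.78 and 8.56 in WT (NM_001272822, X, start 20920991, reverse). The sugar transporter sut1 read 5.97, 9.09 and 8.09 in enok1, 8.98, 8.25 and 8.24 in enok2 and 4.0, 3.59 and 2.51 in WT (NM_078934, 2R, start 3974086, forward). Both were clear of WT. Others here were Naa15-16, a subunit of the N-terminal acetyltransferase A, at 5.98 ± 0.63 in enok1, 6.67 ± 0.47 in enok2 and 2.60 ± 1.7 in WT, and RpS5b, a ribosomal protein copy used in the ovary, at 8.64 ± 2.8, 7.27 ± 1.5 and 3.79 ± 0.53 in enok1, enok2 and WT. The TRIM-NHL protein wech, the calpain sol, the mitochondrial GTPase waw and the translocase Tim9b completed the group with the ubiquitin ligase ari-1 and the kinase Stlk, described further on.

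No role is given here for 10 features, those of 7 genes and of the transcript NM_001201532. CG10555 (NM_132246, X, start 8296598, forward) read 11.7, 11.7 and 9.71 in enok1, 10.4, 5.34 and 11.8 in enok2 and 6.8, 3.19 and 1.67 in WT. Its enok2 replicate 2 fell inside the WT range. CG46385 gave 3 features with different starts on 1 strand, with log2 ratios of 0.83 to 1.01 in enok1 and 0.69 to 0.77 in enok2, and CG12547 was at 39.7 ± 4.2 in enok1, 35.2 ± 3.1 in enok2 and 21.1 ± 1.9 in WT.

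The members closest to the threshold carry the least weight. Just inside were ari-1, CG2926 and NM_001201532, with smaller ratios that all round to 0.60 or 0.61. The ari-1 feature (NM_001258807, X, start 18025759, reverse) read 33.5, 51.96 and 40.6 in enok1, 46.7, 35.3 and 38.6 in enok2 and 25.0, 24.3 and 28.9 in WT, without overlap. CG2926 (NM_001275360, 3R, start 1406446, reverse) was at 22.8, 21.2 and 17.4 in enok1, 11.4, 15.5 and 18.8 in enok2 and 6.80, 14.4 and 7.94 in WT, and NM_001201532 (unplaced scaffold U, start 1184505, forward) at 11.9, 12.5 and 13.3, at 13.7, 11.2 and 10.99, and at 4.0, 12.8 and 5.85 in enok1, enok2 and WT. In CG2926 and NM_001201532, WT replicate 2 was inside the range of a mutant.

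Just outside were CG42245, e(y)3 and another ari-1 feature. CG42245 had 14.7, 9.47 and 5.66 in enok1, 8.51, 8.74 and 12.6 in enok2 and 5.6, 6.78 and 6.27 in WT, so that its ratios of 0.598 and 0.5998 both fell short. e(y)3 read 7.76, 8.86 and 9.38 in enok1, 8.70, 13.6 and 9.57 in enok2 and 5.68, 4.23 and 6.27 in WT, with no overlap, and missed the rule by its enok1 ratio of 0.596. The second ari-1 feature (NM_001272742), which starts nearby, had 34.0, 52.03 and 40.7 in enok1, 46.7, 35.4 and 38.8 in enok2 and 25.6, 24.9 and 28.9 in WT, and missed by its enok2 ratio of 0.587.

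Many members were 1 block of a longer 3′ UTR. A feature here is a contiguous stretch, so a spliced 3′ UTR gives several, and 16 member transcripts had more than 1 block. In Mical (NM_001260087) the member block held 88.3% of the summed abundance of 5 blocks, and the highest of the other 4 averaged 2.46 over the 9 libraries. The member block of Ars2 held 97.5% of 2 blocks, that of Larp4B (NM_139536) 98.2% and that of Kdm4B 92.3%. In E(bx) the member block held 28.2% of 4 blocks, and in Fs(2)Ket 39.2% of 3. The identifiers give no end of a block, so these shares are not per length. The 3 blocks of the mei-217 transcript were all members.

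The member genes had 73 other features in 30 genes, and 14 in 9 genes had a mean of at least 5. In 12 of the 14 a ratio alone kept them out, so their smaller ratios follow from the rule. Both ratios were positive in 13 of the 14, and 1 reached 0.6 in both. That one was another ari-1 block of the same transcript (start 18024425), which failed the rule because its WT mean was 63.0 ± 1.1, against 168 ± 18.5 in enok1 and 158 ± 28.2 in enok2. Another sqd feature (NM_169529) was at 52.4 ± 3.4 in enok1, 51.7 ± 2.9 in enok2 and 36.1 ± 5.8 in WT, with ratios of 0.52 and 0.51.

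The gene models of the members had longer and more often spliced 3′ UTRs than those of the other weak features. In the Ensembl annotation of BDGP6, all 56 member genes were found, as were 392 genes of weak features that were not members. The longest annotated 3′ UTR had a median of 1819.5 nt in member genes and 1077.5 nt in the others, with quartiles of 885.75 and 3204 nt in member genes and 664.75 and 1966 nt in the others. A spliced 3′ UTR was annotated in 22 member genes (39.3%) and in 64 of the others (16.3%), and member genes had a median of 3.5 transcripts with a 3′ UTR, against 2. These are properties of current gene models and not of the measured blocks, and genes with more blocks also had more chances to hold a member.

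In 5 member genes (8.93%) an annotated 3′ UTR overlapped coding sequence of another gene on the same strand, against 7 of the 392 others (1.79%). The pairs were mei-217 with mei-218, CG33672 with Mvk, Tim9b with Pstk, waw with bbx, and Kdm4B with CG17724 and seq. Where they overlap, sense reads of the 3′ UTR and of the coding part of the second gene cannot be told apart. Whether the member blocks lie in the overlap was not examined. The shares were not adjusted for the longer annotated 3′ UTRs and the larger number of transcripts of the member genes. The protein of mei-217 acts in meiotic recombination together with that of mei-218, and both are read from 1 transcript. The strongest of its blocks (NM_001031898, X, start 17032011, reverse) was at 16.8, 18.2 and 15.8 in enok1, 14.7, 13.6 and 16.5 in enok2 and 9.60, 6.38 and 5.01 in WT, and neither mutant overlapped WT. CG33672, upstream of the mevalonate kinase gene Mvk, was at 9.34 ± 1.3 in enok1, 9.23 ± 2.7 in enok2 and 4.43 ± 0.87 in WT.

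Annotated transposon insertions overlapped an annotated 3′ UTR in 8 member genes (14.3%), against 12 of the others (3.06%). Whether they overlap the member blocks was not examined. Member genes also had longer annotated 3′ UTRs and more transcripts, and these shares were not adjusted for either. The insertions were 1360 in CG12547 and ari-1, INE-1 in Zpr1 and tyf, Tirant in Fs(2)Ket, pogo in Kmn1, 412 in Nop60B and the I element in Top1. The annotation describes the reference strain, and the flies sequenced may differ from it. Exons of another gene on the opposite strand overlapped the 3′ UTR in 8 member genes (14.3%) and in 78 of the others (19.9%). Reads from an inserted transposon and from the mRNA around it could not be told apart in the sense values.

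Members were spread over all large chromosome arms. They made up 18 of 91 weak features on 2R (19.8%), 21 of 128 on 3R (16.4%), 18 of 151 on X (11.9%), 8 of 105 on 3L (7.62%) and 6 of 83 on 2L (7.23%), with the last on scaffold U. Both enok and the FRTG13 site lie on 2R, so that flies with an enok allele can differ from WT elsewhere on that arm, and the part of this in the members on 2R was not tested. Starts of different member genes were within 50 kb of each other in 4 pairs. These were sol and waw (16.5 kb), B52 and flfl (25.3 kb), sqd and B52 (27.9 kb) and fs(1)h and Upf2 (32.3 kb).

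Antisense reads were few, as the rule required of WT. In 29 members none of the 9 libraries had any, and in 64 the mean was under 0.5. Summed over the members, antisense abundance was 40.2 ± 8.1 in enok1, 49.4 ± 0.69 in enok2 and 12.6 ± 1.8 in WT (SD, n = 3 each), and the groups did not overlap. Most of the gain lay in CG40006 and Stlk, without which the sums were 14.7 ± 1.4, 16.3 ± 0.76 and 9.74 ± 1.6 in enok1, enok2 and WT. Mutant antisense levels did not enter the rule, but it kept WT antisense levels low, which favours mutant values above WT. All 3 enok1 libraries were above WT in 6 members, beside 3.39% of the 679 features, and all 3 enok2 libraries in 7, beside 2.65%. Both counts include the features of Df31, which share the same antisense values. The 679 features had no limit on WT antisense, so nothing is read from the gap to them.

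CG40006 was the only member with more antisense than sense reads in the mutants. Its sense abundance (NM_001042936, 2L, start 22515149, reverse) was 6.10, 5.87 and 10.5 in enok1, 5.67, 10.7 and 7.85 in enok2 and 2.2, 1.4 and 2.09 in WT, with log2 ratios of 1.55 and 1.65. The antisense abundance was 14.8, 20.1 and 22.7 in enok1, 24.1, 23.1 and 25.1 in enok2 and 1.80, 2.39 and 1.25 in WT. On both strands all mutant libraries were far above all WT libraries.

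Stlk, a kinase of the STE20 family near the centromere of 2R, differed most between the mutants. Its sense abundance (NM_001042977, start 452007, forward) was 24.1, 23.8 and 19.0 in enok2 and 9.99, 16.5 and 16.5 in enok1, against 8.80, 9.97 and 7.52 in WT. All enok2 libraries were above all enok1 libraries, and enok1 replicate 1 barely exceeded WT. Antisense reads were at 7.88, 10.03 and 9.35 in enok2 and 4.02, 4.62 and 10.4 in enok1, against 0.27, 0.73 and 2.16 in WT.

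Antisense reads at Kmn1 and sut1 were near the level of a few reads. Kmn1 had 1.73, 2.97 and 2.39 in enok1, 4.10, 2.95 and 2.47 in enok2 and 0.93, 0.92 and 1.62 in WT. All mutant libraries were above WT, enok1 replicate 1 by a margin smaller than 1 read. sut1 had 2.44, 1.89 and 2.43 in enok1, 2.36, 3.40 and 4.71 in enok2 and 1.20, 4.79 and 0.84 in WT, so its highest antisense value was in a WT library. CG12547 averaged 2.62 ± 0.80 in enok1, 2.89 ± 0.59 in enok2 and 1.14 ± 0.86 in WT, and only enok2 was clear of WT.

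**Figure D4:**
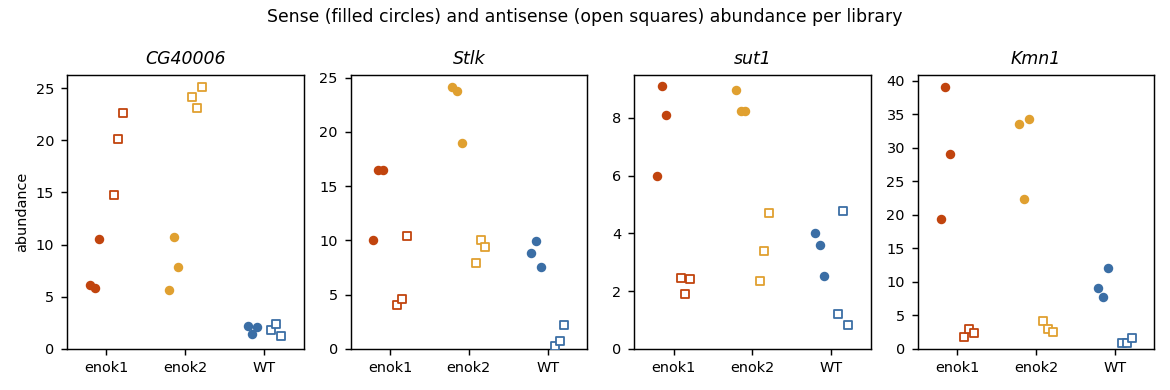
Sense (filled circles) and antisense (open squares) abundance of CG40006, Stlk, sut1 and Kmn1 in each library of enok1, enok2 and WT. Antisense reads of CG40006 are at 14.8 to 25.1 in the 6 mutant libraries and at 1.25 to 2.39 in WT, while those of sut1 overlap between groups.

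The 2 mutants were then compared with each other, the contrast that the rule did not use. No member was called different between enok2 and enok1 (limma, adjusted p at least 0.473), and none of the 679 features was (0%). At an unadjusted p under 0.05 there were 52 features (7.66%), 2 of them members. The members had a median log2 difference, enok2 minus enok1, of −0.11, beside −0.06 over all 679 features, with 53 members lower and 19 higher in enok2. Some of these members are features of the same gene, so the counts are not of independent measurements. Requiring both ratios to reach 0.6 leaves out features in which the mutants differ widely, so small differences were favoured. The 95% interval of the difference was within 1 on the log2 scale in 70 members, and over all 72 the bounds reached −1.03 and 1.13.

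Stlk had the largest difference, a log2 value of 0.63 with an SE of 0.23 and a 95% interval of 0.13 to 1.13 (limma, p 0.0177, adjusted p 0.473), and was higher in 3 of 3 enok2 libraries. The mei-217 block at 17033409 was at 5.67, 4.37 and 5.49 in enok2 and 6.24, 8.33 and 7.68 in enok1, against 3.2, 1.2 and 4.18 in WT. Its difference was −0.44 with an interval of −0.87 to −0.02 (limma, p 0.0429, adjusted p 0.607), and the other 2 blocks of the same transcript had differences of −0.17 and 0.23. For Fs(2)Ket the difference was −0.47 with an interval of −0.95 to 0.01 (limma, adjusted p 0.649). The libraries of the mutants did not overlap in 9 members, with enok2 higher in 1, beside 11.6% of the 679 features.

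**Figure D5:**
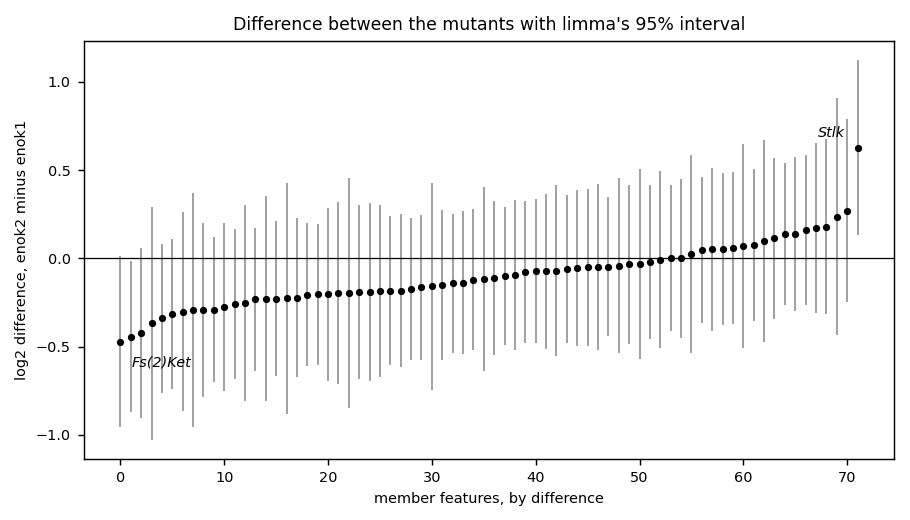
Log2 difference, enok2 minus enok1, for the 72 members in order of the difference, with limma's 95% interval as a vertical line. The points run between −0.47 at Fs(2)Ket and 0.63 at Stlk, most intervals cross 0, and no member has an adjusted p under 0.05.

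The remaining lists held few members. Over all 679 features, 18.1% were called higher and 4.57% lower in enok1, and 9.87% higher and 2.06% lower in enok2. The rule chose the members on these contrasts, so calls of members are no test. Fs(2)Ket was the only member among 5 nuclear pore and transport genes tested with 10 features, of which 3 were called higher in enok1 and 2 in enok2 and 0 were called lower (limma). Among germline and oocyte genes osk was the only member of 4 features tested, of which 1 was called higher in enok1 and 0 in enok2. No member was found among the features tested of the miRNA and siRNA pathway (3 features, 2 called higher in enok1), the cell cycle (4, 2 higher in enok1), insulin and TOR (1, higher in enok1) or heat shock proteins (4, 1 lower in each mutant). Likewise there was none among core histones and chromatin (3), actin cytoskeleton (7), Notch, EGFR and BMP signalling (2), SUMO and ubiquitin (2), the muscle sheath (1) or the Enok complex (1), where no feature was called in either mutant.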

How the data were processed

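Small RNAs from 3 libraries each of enok1, enok2 and WT were analysed. The processing notes of the submitters name Trimmomatic, and the authors calculated abundances with piPipes on the dm3 genome (no mismatches, unique mappers, normalized to miRNAs). The deposited values are this signal per feature and strand, 1 column per library. Many low values lie at 1/2 and 1/3 of the read step, so read counts were not recovered and depth is known only through that step. Groups came from the labels. Features were matched to symbols through a RefSeq table of Release 6 (98.1%, names only), and gene models came from the Ensembl annotation of BDGP6. Starts are those of dm3. log2(abundance + 1) was compared with limma 3.58.1 in R 4.3.3 (eBayes without trend, only the 2 groups of a contrast), two-sided, over the 679 sense features with a mean of at least 5, with Benjamini-Hochberg adjustment and a threshold of 0.05. A pseudocount of 1 understates changes of low features. The script was tested on simulated data. Alternatives were pseudocounts of 0.5 and 3, minimum means, scaling to 140 clusters (median of ratios) or to the 3′ UTR sum, each feature's own variance, all groups in 1 fit, a replicate block, 1 feature a gene and leaving out each library. The members and lists were chosen with earlier results of these data known. Values in every library are given for the 15 member genes with the largest smaller ratio, the 5 with the highest mean, 3 features on each side of the threshold, members on a list, members with an unadjusted p under 0.05 between the mutants and members with a mutant antisense mean of at least 3; roles were assigned afterwards.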

Additional observations from a re-analysis of the deposited data

Results flagged for a closer look

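Antisense reads, which were not part of the comparison of sense levels, stood above WT in every mutant library at 3 members with a mean of at least 3 in a mutant. At CG40006 the mean antisense abundance was 19.2 in enok1 and 24.1 in enok2, against 1.81 in WT. At Stlk it was 6.34 in enok1 and 9.09 in enok2, against 1.05 in WT. At Kmn1 it was 2.36 in enok1 and 3.17 in enok2, against 1.16 in WT, which is a difference of a few reads. The only other gene with this pattern among the members was Df31, at 0.957 in enok1 and 1.07 in enok2, against 0.133 in WT, with the same values at both of its features.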

How the results depend on the processing

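The rule found 72 members, and 80 with a pseudocount of 0.5, 44 with 3, 140 with libraries scaled to the clusters (median of ratios, all 72 among them), 53 after scaling to the 3′ UTR sum, 32 with a minimum mean of 10 and 52 with 1 feature a gene. Leaving out 1 library gave 65 to 92 members, of which 45 of the 72 stayed at 0.6 or more in both mutants whichever library was left out, and all 72 stayed higher. The median of ratios moved the median of the 679 features to 0.49 in enok1 and 0.30 in enok2. The clusters it rests on differ by genotype, since they summed to 65.5% of WT in enok1 and 72.8% in enok2. Scaling to them thus raises the 3′ UTR values of the mutants. Members with all mutant libraries above WT numbered 55 to 67 over the alternatives. Of 364 alternative values of named members 6 moved beyond the spread between replicates, none changed sign and 50 were below 0.6.

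Between the mutants, limma called 1 feature with all 3 groups in 1 fit and 8 without enok2 replicate 3 (0 to 8 over libraries left out), none a member. Features called higher in enok1 than in WT numbered 55 with a minimum mean of 10, 276 after the median of ratios and 30 with own variances, and 80 to 113 with 1 library left out (81 without WT replicate 1, 80 without enok1 replicate 2). Lower calls in enok1 were 20, 14 and 7 under the same 3 settings. Higher calls in enok2 were 29 without a minimum mean, 145 after the median of ratios, 33 after the 3′ UTR sum and 31 with own variances, and 26 to 61 with 1 library left out (32, 36 and 44 without WT replicates 1, 2 and 3, 29 and 26 without enok2 replicates 1 and 3). Lower calls in enok2 were 7 with own variances. With a replicate block the calls were 119 higher and 33 lower in enok1, 53 and 15 in enok2, and 0 between the mutants. Deviations of same-numbered libraries correlated by only −0.02 to 0.12, so the numbers were not taken to pair them.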
